A study of Homo sapiens with 12 samples.

Results

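The interferon-stimulated genes described here are 42 genes taken from a fixed list of transcripts that cells switch on after exposure to interferon. All 42 had a probe set of their own, among 18417 genes with a probe set assigned to 1 gene symbol. The members were given by name, with no threshold on a value. By role they comprised 3 transcriptional regulators, 5 genes of the ISG15 system, 6 RNA sensors and oligoadenylate synthetases, 4 IFIT genes, 10 other antiviral effectors, 7 further interferon-induced proteins, 3 genes of the PARP and DTX3L group, 2 chemokines and 2 antigen processing genes.

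Interferons are secreted proteins that bind receptors on the cell surface and signal through JAK kinases to transcription factors. Type I interferons lead to the complex of phosphorylated STAT proteins with IRF9, which binds a DNA element called the interferon-stimulated response element (ISRE), while interferon gamma leads to a factor that binds the gamma-activated sequence (GAS). In endothelial cells, which line blood vessels, the induced genes restrict viruses, present antigen and attract lymphocytes.

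Levels were measured in EA.hy926, an established human hybrid of umbilical vein endothelium and the A549 lung carcinoma line. Hi cells were kept in the culture medium M199 brought to 4 mg/L (9 uM) folic acid, and Lo cells had been adapted to the 23 nM folic acid of that medium. Both media held 10% fetal calf serum, and no interferon was named in the labels. Confluent cultures received fresh medium and, 24 h later, either 0.5 uM pemetrexed for 48 h or no drug. Pemetrexed is an antifolate that blocks thymidylate and purine synthesis. The 4 groups (Hi control, Hi pemetrexed, Lo control and Lo pemetrexed) each held 3 biological replicates with 1 array apiece, 12 arrays in all. Lo cells were a separately adapted culture of the same line, so low folate and other ways in which these cultures may differ cannot be told apart. All p-values refer to variation among biological replicates within 1 line, and precision is limited by how few arrays there were.

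To show where the ISRE lies near genes that the results turn on, promoters were read from RefSeq (GRCh38.p14) as 300 bases, 250 before and 50 after each transcription start. The core of the ISRE was searched as GAAA, any 2 bases and GAAA again, and that of the GAS as TTCNNNGAA, on both strands and with overlapping matches allowed, also between the motifs. The stretches below are written 5′ to 3′ along the strand of the gene, with the matches of the ISRE core in capitals, or of the GAS core where it is named. IFIT1, IFI6, BST2 and IFITM1 had large differences between Lo and Hi cells, OAS3 and TAP1 were genes that pemetrexed raised in Lo cells, PARP9 shares its match with a neighbour, and IRF1 and IRF9 carry the GAS core.
IFIT1, chr10:89392498-89392538, plus strand, bases 125 to 85 before the start: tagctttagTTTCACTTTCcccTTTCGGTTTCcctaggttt
IFI6, chr1:27672267-27672357, minus strand, bases 165 to 75 before the start: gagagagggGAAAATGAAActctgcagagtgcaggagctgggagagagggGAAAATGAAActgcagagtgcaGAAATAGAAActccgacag
BST2, chr19:17405735-17405770, minus strand, bases 140 to 105 before the start: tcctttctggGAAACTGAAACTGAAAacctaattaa
OAS3, chr12:112938319-112938349, plus strand, bases 155 to 125 before the start: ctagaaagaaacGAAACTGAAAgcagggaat
IFITM1, chr11:313990-314019, plus strand, bases 50 to 21 before the start: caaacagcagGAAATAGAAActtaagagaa
TAP1, chr6:32853814-32853844, minus strand, bases 140 to 110 before the start: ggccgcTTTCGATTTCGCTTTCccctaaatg
PARP9, chr3:122564317-122564346, minus strand, bases 46 to 17 before the start: caaagTTTCAGTTTCgcttccctggaggtc
IRF1, GAS core, chr5:132490879-132490908, minus strand, bases 135 to 106 before the start: aacagcctgatTTCCCCGAAatgacggcac
IRF9, GAS core, chr14:24161190-24161219, plus strand, bases 75 to 46 before the start: agaccacgtgatTTCTGGGAAaaggccctc
In IFI6 the core occurred 3 times within these 91 bases, and in IFIT1, BST2 and TAP1 it occurred 2 times, overlapping in BST2 and TAP1. The BST2 stretch also holds a GAS core match that overlaps the first ISRE core and is left in lower case before it.

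Promoters were listed for 35 of the 42 genes, 47 promoters in all, since 10 genes had several starts. IRF7, USP18, OAS2, OASL, IFIT2, MX2 and GBP2 had no promoter in the table. The ISRE core was present in 28 of the 47 promoters (59.6%), against 1255 of all 35116 promoters (3.57%). The GAS core was present in 14 (29.8%), against 2689 of all promoters (7.66%). These are matches of letters and not measured binding, and the genes were listed because interferon induces them, so the excess describes the list.

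The arrays separated by folate level except for 2 controls, and this touches every comparison with a control group. On the first principal component of all genes, which held 61.1% of the variance, Hi control 3 lay at 8.94, near Lo controls 1 and 2 at 7.18 and 6.75 and away from the other Hi arrays at -20.1 to -17.8. Lo control 3 lay at -19.3, among the Hi arrays. Of the 42 interferon-stimulated genes, Hi control 3 was above both other Hi controls in 34 and below both in 6. Lo control 3 was below both other Lo controls in 28 and above both in 7. The same positions were not counted over all genes, so these counts describe the 42 genes only. The labels were kept, and each result is given with all 12 arrays and with the 10 arrays left after both were omitted. The 2 arrays were picked out by the same values that are tested here. The p-values with 10 arrays therefore describe a selected set of arrays and are no independent support. Endothelial markers also differed between the groups. The mean log2 level of 10 such markers was 10.9 to 11.1 in Hi pemetrexed and 9.89 to 10.0 in Lo pemetrexed arrays, and 10.9 to 11.1 against 10.3 in Hi and Lo controls 1 and 2. VWF (von Willebrand factor) read 9.55, 9.11 and 9.00 in Hi pemetrexed and 6.72, 6.88 and 6.68 in Lo pemetrexed arrays.

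**Figure D1:**
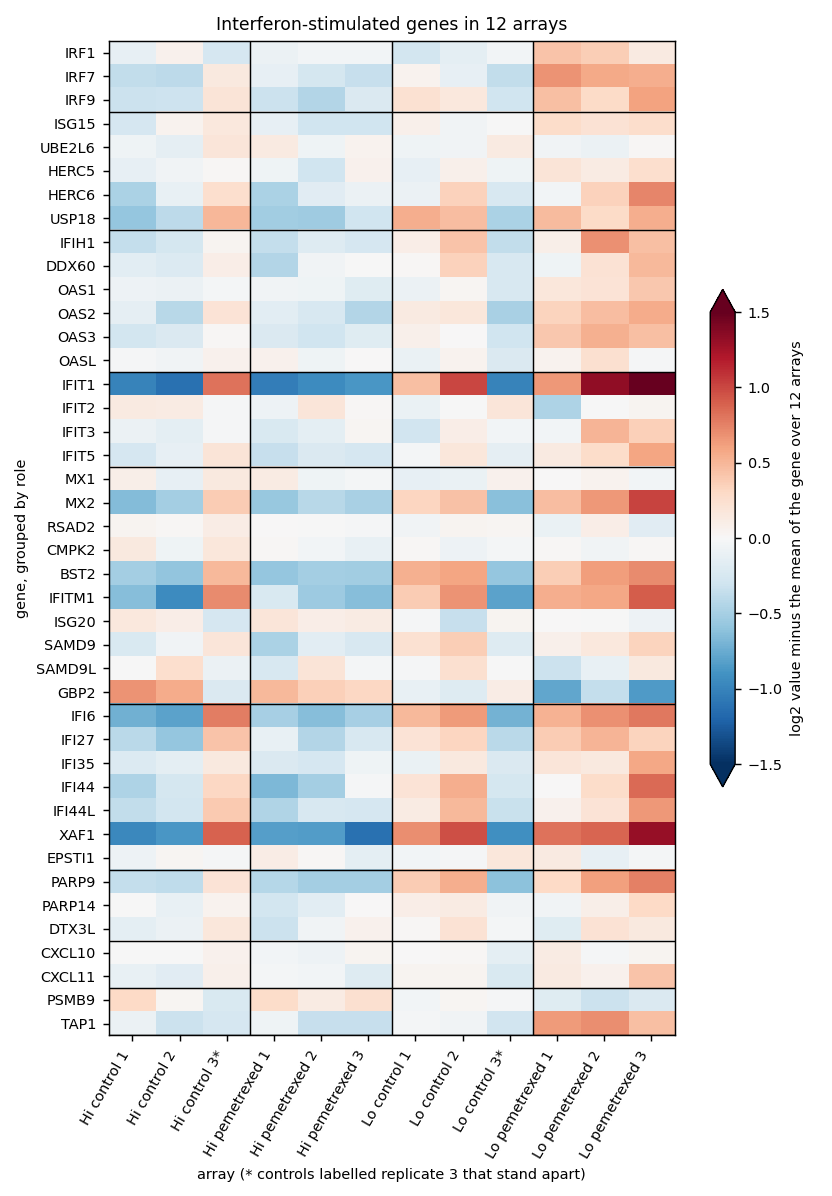
Heat map of the 42 genes (vertical axis, grouped by role) in the 12 arrays (horizontal axis), with colour giving the log2 value minus the mean of that gene over all arrays. Hi control 3 has the colours of the Lo arrays and Lo control 3 those of the Hi arrays for genes such as IFIT1, XAF1 and IFI6, and GBP2 runs the opposite way.

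Under pemetrexed, Lo cells had higher levels of many interferon-stimulated genes than Hi cells. With all 12 arrays, 21 of 42 were higher and 2 were lower at a Benjamini-Hochberg adjusted p under 0.05 in limma, a linear model fitted across all genes, while 11.3% of all genes were higher and 11% were lower. The median difference was 0.48 on the log2 scale over the 42 genes and 0.01 over all genes. IFIT1 was 4.54-fold, XAF1 3.81-fold, IFI6 2.32-fold, MX2 2.29-fold, BST2 2.15-fold and PARP9 2.06-fold higher, and GBP2 was 2.05-fold lower. Neither pemetrexed group holds an array that stood apart, and the 2 odd controls enter through the shared estimate of the spread and the adjustment over all genes. Without them 26 genes were higher and 2 lower, against 13.7% and 14% of all genes, and a fit of the 2 pemetrexed groups alone called 24 higher and 2 lower. With the replicate number as a block, 29 were higher and 2 lower with 10 arrays, against 17.6% and 18% of all genes, and 21 and 2 with 12 arrays, against 12.4% and 12%. The block with 12 arrays ended the calls of IFI6 and USP18 (limma adjusted p = 0.0584 and 0.0573) and added HERC6 and IFIT3. Dropping Hi pemetrexed 1, Lo pemetrexed 2 or Lo pemetrexed 3 from the 12 arrays left 14, 15 and 14 calls. The share of all genes called was not counted for these fits or for the fit of the 2 pemetrexed groups alone. Those counts therefore describe the 42 genes only. The calls that ended when some single pemetrexed array was left out were those of BST2, HERC5, IFI35, IFI44, IFI6, IFIH1, IRF1, SAMD9, USP18 and XAF1. In the same comparison 9 of 10 endothelial markers were lower and none was higher. Their part in the differences was not tested. In a bulk sample, fewer cells that carry a transcript and less transcript per cell cannot be told apart. Where groups are said below not to overlap, this describes the arrays of that gene. The share of all genes without overlap was not counted, so a lack of overlap does not set these genes apart.

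All 3 regulators were higher. IRF9, the DNA-binding subunit of the factor that recognises the ISRE, read 9.67, 9.55 and 9.77 in Hi pemetrexed and 10.44, 10.28 and 10.59 in Lo pemetrexed arrays. The groups did not overlap, and the difference was 0.77 ± 0.16 (SE, n = 3 per group, limma adjusted p = 0.00439). IRF7, the factor that amplifies type I interferon production, read 8.73, 8.59 and 8.51 in Hi and 9.53, 9.42 and 9.40 in Lo pemetrexed arrays, a difference of 0.84 ± 0.14 (limma adjusted p = 0.00126). IRF1, a factor induced by interferon gamma, read 8.95, 9.00 and 9.00 in Hi and 9.47, 9.41 and 9.17 in Lo pemetrexed arrays. Its difference was smaller, at 0.37 ± 0.10 (limma adjusted p = 0.0180), and again every Lo array lay above every Hi array.

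In the ISG15 system, which attaches the ubiquitin-like protein ISG15 to other proteins, 3 of 5 genes were higher. ISG15 itself read 7.82, 7.65 and 7.65 in Hi pemetrexed and 8.22, 8.17 and 8.21 in Lo pemetrexed arrays, a difference of 0.49 ± 0.10 (limma adjusted p = 0.00357). USP18, which removes ISG15 and dampens signalling at the type I receptor, was higher by 0.88 ± 0.28, and HERC5, the ligase that attaches ISG15, by 0.29 ± 0.09 (limma adjusted p = 0.0373 and 0.0468). All Lo arrays lay above all Hi arrays for these 3 genes. The call of HERC5 was lost in 12 of 20 alternative settings and that of USP18 in 8 of 21. HERC6, a relative of HERC5, differed by 0.59 and was not called with 12 arrays (limma adjusted p = 0.0725), but passed without the odd controls (limma adjusted p = 0.0315) and with the block and 12 arrays (limma adjusted p = 0.0274). UBE2L6, the conjugating enzyme of the system, differed by -0.08 and was not called.

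Of the RNA sensors and oligoadenylate synthetases, 4 of 6 were higher. The synthetases make oligoadenylates that activate a latent ribonuclease. OAS3 read 8.93, 8.84 and 8.96 in Hi pemetrexed and 9.55, 9.68 and 9.60 in Lo pemetrexed arrays, without overlap, a difference of 0.70 ± 0.10 (limma adjusted p = 0.000678). OAS2 differed by 0.73 ± 0.18 and OAS1 by 0.36 ± 0.09 (limma adjusted p = 0.0111 and 0.009). IFIH1, the cytoplasmic sensor MDA5 of long double-stranded RNA, was higher by 0.68 ± 0.19. DDX60, a helicase, differed by 0.38 and OASL, a relative of the synthetases, by 0.09, and neither was called with 12 or 10 arrays and no block. With the block and 10 arrays DDX60 passed (limma adjusted p = 0.00347).

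The IFIT genes encode proteins that bind foreign RNA, and 2 of the 4 were higher. IFIT1 read 7.01, 7.11 and 7.18 in Hi pemetrexed and 8.70, 9.38 and 9.77 in Lo pemetrexed arrays. Every Lo array exceeded every Hi array, and the difference of 2.18 ± 0.52 was the largest of the 42 (limma adjusted p = 0.00999, and 1.1e-05 without the odd controls). IFIT5 differed by 0.60 ± 0.13 (limma adjusted p = 0.00686). IFIT3, at 0.39, was called with the block (limma adjusted p = 0.0221 with 12 arrays) and not without it, with 12 or 10 arrays. IFIT2, at -0.18, was not called.

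Among the 10 other antiviral effectors, 3 were higher and 1 was lower with 12 arrays. MX2, a dynamin-like GTPase, read 5.90, 6.06 and 5.99 in Hi and 6.94, 7.12 and 7.48 in Lo pemetrexed arrays, a difference of 1.20 ± 0.29 (limma adjusted p = 0.00977). BST2 (tetherin), which holds budding virus at the membrane, read 6.35, 6.42 and 6.41 in Hi and 7.30, 7.56 and 7.64 in Lo pemetrexed arrays, a difference of 1.11 ± 0.30 (limma adjusted p = 0.0197). Neither gene overlapped between the groups. SAMD9, a restriction factor of poxviruses, was higher by 0.48 ± 0.15. IFITM1, a membrane protein that limits viral entry, read 9.51, 9.19 and 9.10 in Hi and 10.28, 10.32 and 10.64 in Lo pemetrexed arrays. Its difference of 1.15 ± 0.40 missed the threshold with 12 arrays (limma adjusted p = 0.0579) and passed it with 10 (1.15 ± 0.13, limma adjusted p = 4.46e-05), although the arrays of both groups were the same in both fits. The estimate of the spread and the adjustment over all genes were what differed.

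GBP2, a guanylate-binding GTPase, was the effector called lower. It read 7.19, 7.06 and 7.02 in Hi and 5.93, 6.35 and 5.86 in Lo pemetrexed arrays, without overlap, a difference of -1.04 ± 0.20 (limma adjusted p = 0.0027). A second probe set of GBP2 differed by -0.57. MX1, the neighbour of MX2 on chromosome 21, read 6.18, 5.99 and 6.03 in Hi and 6.06, 6.11 and 6.02 in Lo pemetrexed arrays, and the groups overlapped. The uncalled effectors, named so that every gene is accounted for, were MX1 at 0.00, the mitochondrial nucleotide kinase CMPK2 at 0.04, RSAD2 (viperin) at -0.05, SAMD9L at -0.07 and the exonuclease ISG20 at -0.16. MX1 and RSAD2 were among 6 of the 42 with a low mean level, in the lowest 25% of all genes, with HERC5, EPSTI1, CXCL10 and CXCL11. No detection call was used here, so whether these were expressed is unknown.

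Of the 7 further interferon-induced proteins, 4 were higher. XAF1, which binds the apoptosis inhibitor XIAP, read 6.99, 6.98 and 6.70 in Hi and 8.64, 8.69 and 9.13 in Lo pemetrexed arrays, a difference of 1.93 ± 0.49 (limma adjusted p = 0.0136). IFI6, a small membrane protein, read 11.84, 11.70 and 11.84 in Hi and 12.87, 13.03 and 13.13 in Lo pemetrexed arrays, a difference of 1.22 ± 0.38 (limma adjusted p = 0.0375). Neither gene overlapped between the groups, and without the odd controls their adjusted p in limma fell to 5.55e-07 and 6.28e-07. IFI44 was higher by 0.78 ± 0.26 and IFI35 by 0.48 ± 0.13 (limma adjusted p = 0.0497 and 0.0222). IFI44 thus lay at the threshold, and its call was lost in 8 of 21 alternative settings, that of IFI35 in 4. IFI27 and IFI44L, at 0.67 and 0.63, missed the threshold with 12 arrays (limma adjusted p = 0.0568 and 0.0663) and passed it with 10. EPSTI1 differed by 0.00.

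PARP9, a partner of the ubiquitin ligase DTX3L, read 8.62, 8.54 and 8.54 in Hi and 9.35, 9.67 and 9.81 in Lo pemetrexed arrays, a difference of 1.04 ± 0.25 (limma adjusted p = 0.00997) without overlap. DTX3L itself differed by 0.16 and PARP14, another member of the poly-ADP-ribose polymerase family, by 0.25, both uncalled with 12 or 10 arrays and no block. PARP14 passed with the block and 10 arrays (limma adjusted p = 0.00850). The chemokines CXCL10 and CXCL11 attract T cells through CXCR3. CXCL10 lay between 4.53 and 4.80 on every array and differed by 0.07, and CXCL11 differed by 0.30 and was called only with 10 arrays (limma adjusted p = 0.0292).

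The antigen processing genes went opposite ways. TAP1, a subunit of the transporter that carries peptides to class I molecules, read 9.71, 9.43 and 9.43 in Hi and 10.41, 10.47 and 10.22 in Lo pemetrexed arrays, a difference of 0.84 ± 0.11 (limma adjusted p = 0.000239). PSMB9, a catalytic subunit of the immunoproteasome, read 8.79, 8.64 and 8.76 in Hi and 8.34, 8.19 and 8.30 in Lo pemetrexed arrays, a difference of -0.45 ± 0.11 (limma adjusted p = 0.00928). The groups of neither gene overlapped.

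**Figure D2:**
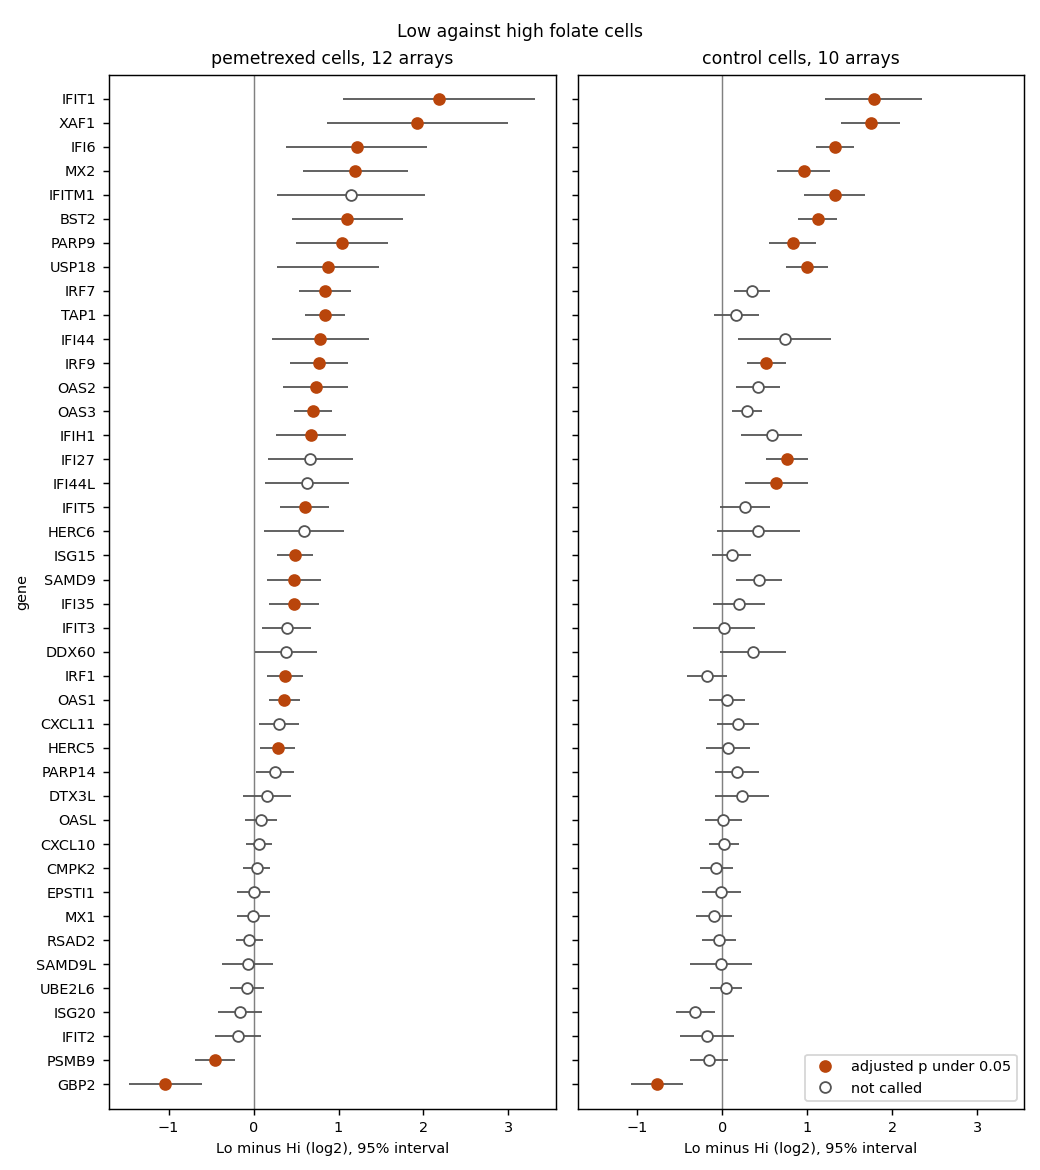
Lo minus Hi difference (log2, horizontal axis) of each of the 42 genes (vertical axis, ordered by the left panel) with its 95% interval, in pemetrexed cells with all 12 arrays (left) and in control cells without the 2 controls labelled replicate 3 (right). Orange points passed an adjusted p under 0.05, and IFIT1 and XAF1 are highest and GBP2 lowest in both panels.

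The list holds 10 sets of neighbouring genes by the RefSeq order of GRCh38.p14, and neighbours often differed in their values. In the IFIT cluster on chromosome 10 the differences under pemetrexed were -0.18 for IFIT2, 0.39 for IFIT3, 2.18 for IFIT1 and 0.60 for IFIT5. In the OAS cluster on chromosome 12 all 3 genes were called, at 0.36 for OAS1, 0.70 for OAS3 and 0.73 for OAS2. MX2 and MX1 stood at 1.20 and 0.00, and SAMD9 and SAMD9L at 0.48 and -0.07. PARP9 and DTX3L are divergent genes and share the ISRE core match printed above for PARP9, and they stood at 1.04 and 0.16. The TAP1 matches lie 353 bases from the start of PSMB9, outside the promoter window of that gene, and the genes stood at 0.84 and -0.45. Among genes with a promoter, the ISRE core was present in 12 of 17 called higher and in 12 of 17 not called with 12 arrays. These letters thus did not separate the genes by the 12-array calls. Of the uncalled genes that passed with 10 arrays, IFITM1, IFI27 and IFI44L held a match, and HERC6 and CXCL11 did not. IRF7, USP18, OAS2 and MX2 were called higher but had no promoter to search. XAF1 held no match in either of its promoters.

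**Figure D3:**
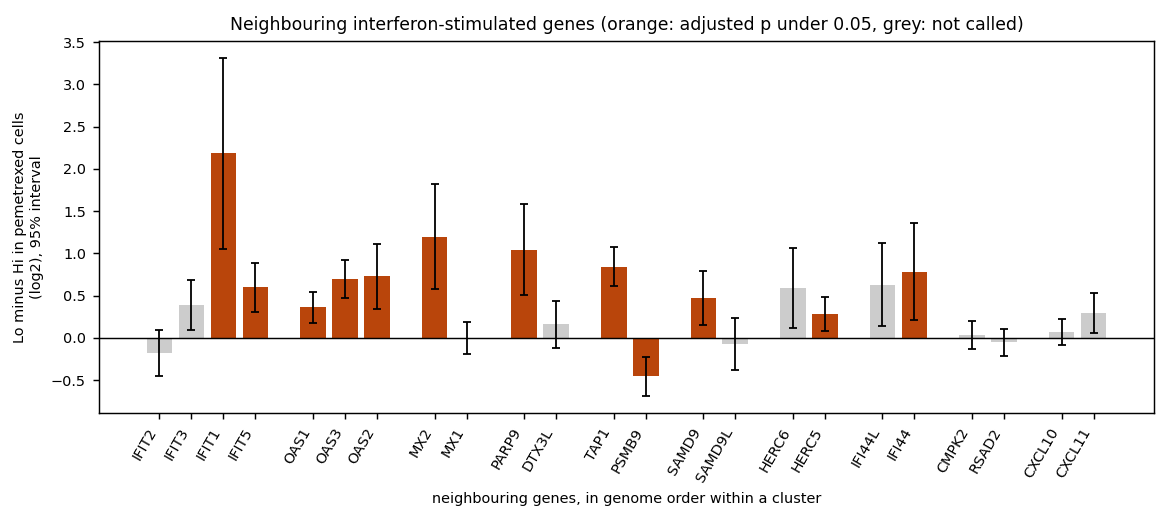
Lo minus Hi difference in pemetrexed cells (log2, vertical axis, bars starting at 0) for neighbouring interferon-stimulated genes in genome order, with 95% intervals from the 12-array model. Orange bars passed an adjusted p under 0.05 and grey bars did not, and the IFIT cluster runs from -0.18 for IFIT2 to 2.18 for IFIT1.

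In control cells the answer depended on the 2 odd arrays. With all 12 arrays no gene of the 18417 was called between Lo and Hi controls in limma (0% in either direction). At an unadjusted p under 0.05 in limma there were 387 genes, none of them among the 42. That is a smaller share than this threshold passes when nothing differs. Without the 2 odd arrays, 11 of the 42 genes were higher in Lo controls and 1 was lower, against 3.67% and 3.5% of all genes. The median difference was then 0.22 over the 42 genes and -0.01 over all genes. Both control groups hold 2 arrays in that fit. The omitted arrays were those at the level of the other group, so these calls and their p-values depend on that choice. With the replicate number as a block as well, 19 were higher and 2 were lower, against 6.73% and 6.42% of all genes.

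Of the 12 genes called without the odd arrays, IFI6, XAF1, IFIT1 and BST2 are given in every array. IFI6 read 11.62, 11.54 and 13.11 in Hi controls 1 to 3 and 12.83, 12.98 and 11.63 in Lo controls 1 to 3. Controls 1 and 2 of the groups did not overlap, and the third array of each group lay at the level of the other group. The difference was 1.32 ± 0.10 with 10 arrays (limma adjusted p = 1.68e-05) and 0.39 with 12. XAF1 read 6.86, 6.95 and 8.71 in Hi and 8.52, 8.79 and 6.90 in Lo controls, and the difference was 1.75 ± 0.16 with 10 arrays (limma adjusted p = 4.72e-05) and 0.56 with 12. IFIT1 read 7.05, 6.93 and 8.87 in Hi and 8.50, 9.05 and 7.05 in Lo controls, and BST2 read 6.42, 6.34 and 7.42 in Hi and 7.47, 7.53 and 6.36 in Lo controls. Both showed the same exchange of the third arrays, with differences of 1.78 ± 0.26 and 1.12 ± 0.11 with 10 arrays (limma adjusted p = 0.00139 and 5.69e-05).

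USP18 and IFITM1 followed, at 0.99 ± 0.11 and 1.32 ± 0.16, and MX2, IFI27, PARP9, IRF9 and IFI44L were higher by 0.96, 0.76, 0.83, 0.52 and 0.63. GBP2 was the gene that was lower. It read 7.38, 7.26 and 6.49 in Hi and 6.59, 6.51 and 6.81 in Lo controls, a difference of -0.77 ± 0.14 with 10 arrays (limma adjusted p = 0.00498). TAP1 and IRF1, called under pemetrexed, differed by 0.16 and -0.18 in controls and were not called. The block added IRF7, HERC6, IFIH1, DDX60, OAS2, OAS3, SAMD9 and IFI44 as higher, at 0.29 to 0.73, and ISG20 as lower at -0.32. Without the odd arrays, 5 of 10 endothelial markers were lower in Lo controls, and their part was not tested.

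**Figure D4:**
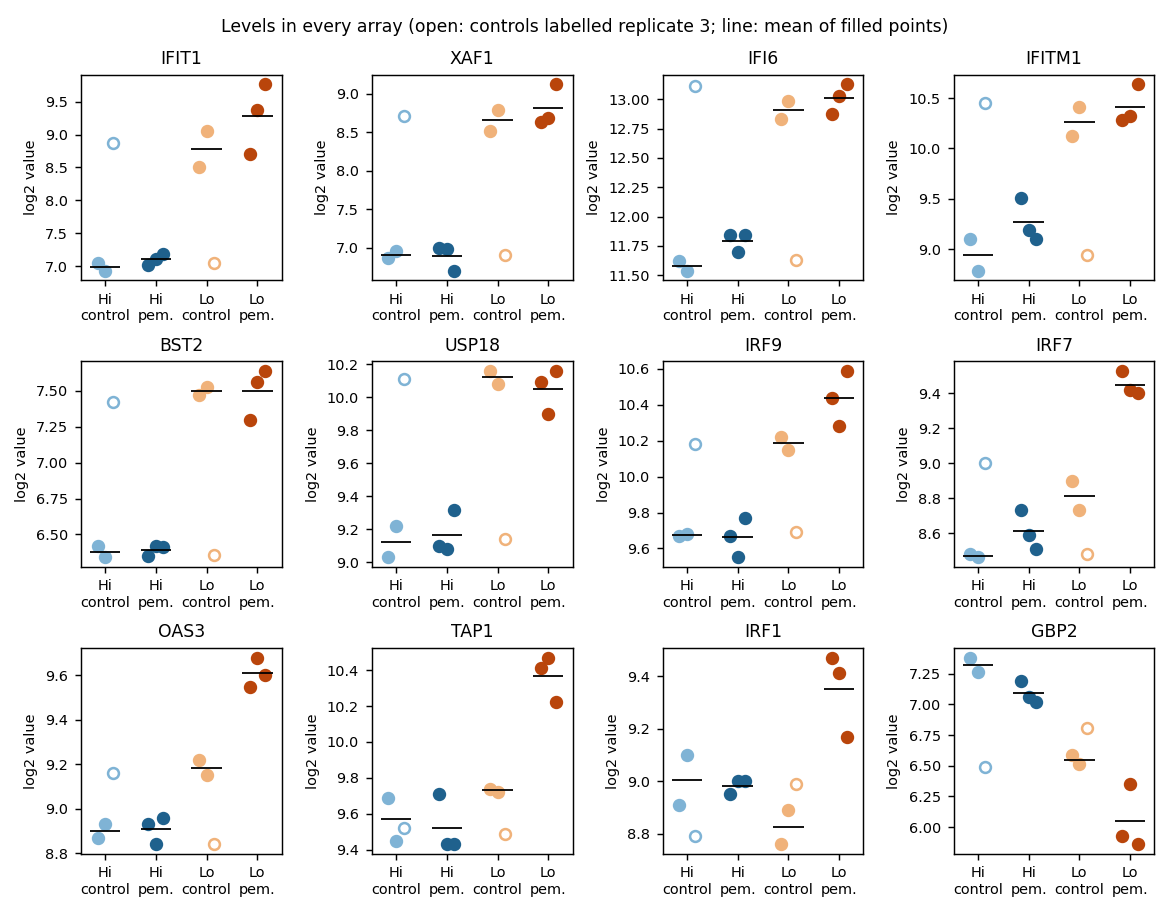
Log2 values (vertical axes) of 12 genes in every array, by group, with a line at the mean of the filled points and open circles for the controls labelled replicate 3. The open Hi control circle of IFIT1 lies at 8.87 and the open Lo control circle at 7.05, while for TAP1 and IRF1 the Lo pemetrexed points lie above all other points.

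Pemetrexed raised a small number of interferon-stimulated genes in Lo cells. With 12 arrays, TAP1, IRF7, OAS3, IRF1 and OAS1 rose and none fell, 5 of 42 against 5.6% of all genes that rose and 5.14% that fell in limma. Without the odd arrays 4 rose and 1 fell, against 5.21% and 5.74%, with OAS1 lost and GBP2 gained as a fall. With so few calls beside these shares, the counts are not read as a response of the list as a whole. OAS1 returned with the replicate block (limma adjusted p = 0.0485). The median change was 0.26 over the 42 genes and 0.02 over all genes with 12 arrays, and 0.13 against 0.03 with 10.

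TAP1 read 9.74, 9.72 and 9.49 in Lo controls and 10.41, 10.47 and 10.22 with pemetrexed, a rise of 0.72 ± 0.11 (limma adjusted p = 0.00102). IRF7 read 8.90, 8.73 and 8.48 in Lo controls and 9.53, 9.42 and 9.40 with pemetrexed, a rise of 0.75 ± 0.14 (limma adjusted p = 0.00445). Treated and control arrays did not overlap for either gene, and the rises were 0.64 for both genes without the odd arrays. OAS3 read 9.22, 9.15 and 8.84 in Lo controls and 9.55, 9.68 and 9.60 with pemetrexed, a rise of 0.54 ± 0.10 (limma adjusted p = 0.00564). IRF1 read 8.76, 8.89 and 8.99 in Lo controls and 9.47, 9.41 and 9.17 with pemetrexed, a rise of 0.47 ± 0.10 (limma adjusted p = 0.00871). For these genes too the groups did not overlap, and with 10 arrays the rises were 0.43 and 0.53. OAS1 read 11.14, 11.25 and 10.99 in Lo controls and 11.40, 11.43 and 11.63 with pemetrexed, a rise of 0.36 ± 0.09 (limma adjusted p = 0.0169).

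GBP2 read 6.59, 6.51 and 6.81 in Lo controls and 5.93, 6.35 and 5.86 with pemetrexed, without overlap. The difference was -0.59 ± 0.20 with 12 arrays (limma adjusted p = 0.0803), and with 10 arrays it was -0.50 ± 0.13 (limma adjusted p = 0.0244). Some genes with large differences between Lo and Hi cells were not called here in either fit. IFIT1 differed by 1.08 with 12 and 0.51 with 10 arrays, XAF1 by 0.75 and 0.16, IFI6 by 0.53 and 0.11, and MX2 by 0.67 and 0.33. The values of each pair differ because Lo control 3, the array at the Hi level, was left out of the second. Endothelial markers fell in the same comparison, 4 of 10 with 12 arrays and 5 of 10 with 10, and their part was not tested.

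Hi cells showed no called change under pemetrexed. In limma 0 of the 42 genes, and 0% of all genes in either direction, passed the threshold with 12 arrays or with 10. At an unadjusted p under 0.05 there were 1 of the 42 and 266 of all genes with 12 arrays, and 2 and 335 with 10. The shares of all genes are smaller than this threshold passes when nothing differs. The changes of the 42 genes ran from -0.23 to 0.32 with 10 arrays, and their 95% intervals lay within -0.54 to 0.65, so larger changes of these genes lay outside the intervals. With 12 arrays the intervals reached from -1.68 to 0.69, with both odd controls in the fit. TAP1 read 9.69, 9.45 and 9.52 in Hi controls and 9.71, 9.43 and 9.43 with pemetrexed, and IRF1 read 8.91, 9.10 and 8.79 in Hi controls and 8.95, 9.00 and 9.00 with pemetrexed. The groups overlapped for both genes.

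**Figure D5:**
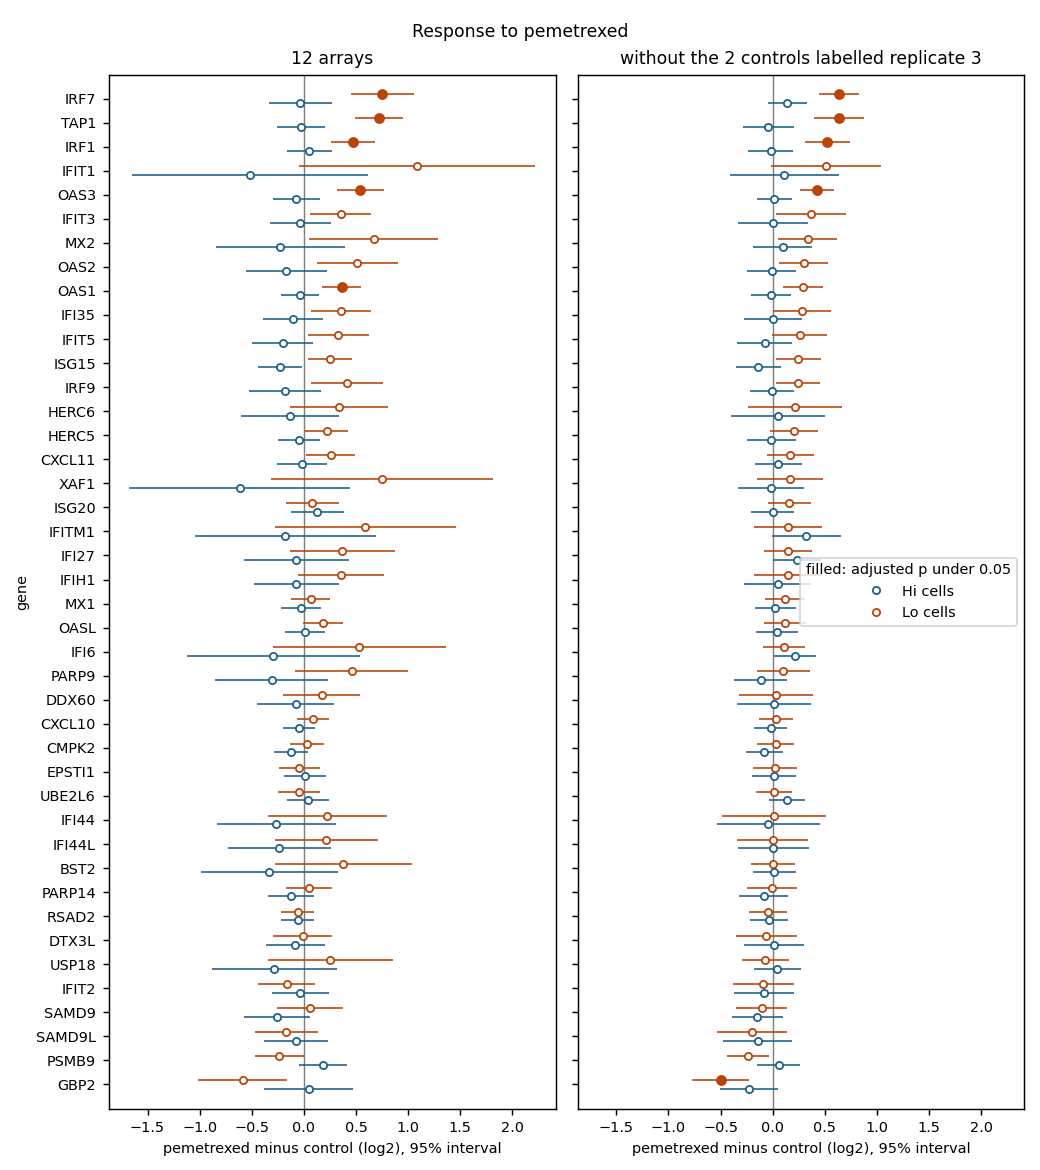
Pemetrexed minus control (log2, horizontal axis) for each of the 42 genes (vertical axis) in Hi cells (blue) and Lo cells (orange) with 95% intervals, from 12 arrays (left) and without the 2 controls labelled replicate 3 (right). Filled points passed an adjusted p under 0.05, and all of them belong to Lo cells: 5 genes on the left and 5 on the right.

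The difference between the responses was tested directly as an interaction, the Lo response minus the Hi response. It passed in limma for TAP1, OAS3 and IRF7 with 12 arrays, 3 higher and none lower of 42, against 2.57% and 2.24% of all genes. With 10 arrays TAP1 and IRF7 passed, against 2.02% and 2.14% of all genes. TAP1 differed by 0.74 ± 0.15 with 12 arrays (limma adjusted p = 0.0158) and 0.68 ± 0.16 with 10 (limma adjusted p = 0.0325). IRF7 differed by 0.79 ± 0.20 and 0.50 ± 0.12 (limma adjusted p = 0.0418 and 0.0456), and OAS3 by 0.61 ± 0.15 and 0.41 ± 0.11 (limma adjusted p = 0.0354 and 0.0560). IRF1 differed by 0.42 and 0.55 and was not called (limma adjusted p = 0.110 and 0.0506). With the replicate block and 10 arrays these 4 genes passed, against 4.68% of all genes higher and 4.76% lower. With the block and 12 arrays TAP1 alone passed, against 2.82% and 2.57%. Leaving out any 1 pemetrexed array, or Lo control 3, left 1 call, and leaving out Hi control 1 gave 5. The medians over the 42 genes were 0.42 with 12 arrays and 0.10 with 10, and over all genes 0.02 with both. The comparisons share arrays, so their calls are not independent of each other.

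The rest of the pathway, 100 genes from lists of ligands, receptors, signalling, sensors, antigen presentation and further induced genes, showed 16 higher and 10 lower in Lo than in Hi cells under pemetrexed with 12 arrays, and 21 and 15 with 10. These shares lie near those of all genes, which were 11.3% and 11% with 12 arrays and 13.7% and 14% with 10. None of the 16 interferon genes measured was called in that comparison in limma, and none had an unadjusted p under 0.05 with 12 arrays (1 with 10). IFNB1, interferon beta, lay between 4.02 and 4.53 over all arrays and differed by -0.06 ± 0.11. That is a low level, near that of the fibroblast marker DCN at 3.85 to 4.15. No detection call was used, so a change of interferon transcripts at such levels could go unseen. Of the 6 receptor genes 2 were lower, IFNAR2 at a difference of -0.33 ± 0.09 and IFNGR2 at -0.39 ± 0.11 (limma adjusted p = 0.0236 and 0.0201). Their partner chains IFNAR1 and IFNGR1 differed by -0.18 and 0.23 and were not called. In the signalling list SOCS1, a feedback inhibitor of JAK kinases, was higher at 0.35 and the kinase JAK1 was lower at -0.27.

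Of 18 sensors and adaptors 4 were higher and none lower: EIF2AK2, the RNA-dependent kinase PKR, by 0.90 ± 0.19 (limma adjusted p = 0.00568), TLR3 by 0.61, RIGI by 0.40 and TBK1 by 0.34. The class I antigen presentation list was mixed, with 2 higher and 5 lower of 10. Beside the counts of these short lists, 11.3% of all genes were higher and 11% were lower. The peptidase ERAP2 and the proteasome activator subunit PSME2 were higher by 0.66 and 0.58. Lower were NLRC5, the transactivator of class I genes, at -0.73 ± 0.17, B2M, the light chain of class I molecules, at -0.68 ± 0.17, and TAPBP, ERAP1 and PSME1 at -0.42, -0.26 and -0.24. TAP1 was thus higher and PSMB9 lower beside other genes of their pathway that moved in either direction.

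Among 37 further interferon-induced genes 9 were higher and 2 lower, against 11.3% and 11% of all genes. Those named here had the smallest p and do not stand for the list. CD274, the checkpoint ligand PD-L1, read 7.01, 7.42 and 7.39 in Hi and 8.94, 9.02 and 8.97 in Lo pemetrexed arrays, a difference of 1.71 ± 0.17 (limma adjusted p = 5.14e-05). IFI30, a lysosomal thiol reductase, read 8.43, 8.33 and 8.40 in Hi and 10.22, 10.06 and 10.06 in Lo pemetrexed arrays, a difference of 1.73 ± 0.20 (limma adjusted p = 0.000131). Neither gene overlapped between the groups, and both also rose with pemetrexed within Lo cells, CD274 by 1.31 ± 0.17 with 12 and 1.09 ± 0.13 with 10 arrays and IFI30 by 1.24 ± 0.20 and 0.98 ± 0.09. The interaction passed for both, at 1.51 ± 0.24 and 1.45 ± 0.28 with 12 arrays (limma adjusted p = 0.00414 and 0.0124). SP110 and ZNFX1 followed the same pattern, with interactions of 0.90 and 0.54. NMI and APOL3 were lower in Lo than in Hi pemetrexed cells, at -0.77 and -0.58.

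Leukocytes can secrete interferon and carry some of these transcripts, and the mean log2 levels of their markers overlapped between the pemetrexed groups. The cultures were an established line, so these levels describe transcripts and are no measure of leukocyte content. The mean of 8 leukocyte markers was 7.35 to 7.46 in Hi and 7.39 to 7.56 in Lo pemetrexed arrays, and PTPRC (CD45) lay between 4.05 and 4.21 on those arrays. Of the 8, ITGAX was higher and LYZ lower in Lo than in Hi pemetrexed cells, at 0.75 and -0.74, and CD68 was also higher, at 0.32, without the odd controls. None of 6 fibroblast markers was called in limma, with 12 arrays or with 10, at an unadjusted p under 0.05 either (0 of 6). The epithelial and A549 list had 2 higher and 2 lower of 10 with 12 arrays, AKR1B10 at 2.82 (7.04-fold, beyond any of the 42 genes), EPCAM at 0.38, ALDH1A1 at -1.24 and AKR1C1 at -0.38, and without the odd controls KRT8 was also higher, at 0.23. The part of these markers in the results was not tested. In all, 19 of the 42 interferon-stimulated genes were called in no comparison with 12 arrays, 14 with 10, and 10 with 10 arrays and the replicate block, and those 10 were UBE2L6, OASL, IFIT2, MX1, RSAD2, CMPK2, SAMD9L, EPSTI1, DTX3L and CXCL10.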

How the data were processed

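RNA of the 12 cultures was hybridised to Affymetrix whole-transcript arrays. Per the submitters' processing notes, the authors summarised probes into deposited log2 values per probe set by RMA, using Partek 6.5. Its settings are not given in the sources used here, and depth has no meaning for arrays. The table held 33297 probe sets. The 19460 with 1 symbol in the array annotation, updated by Entrez identifier to RefSeq GRCh38.p14, gave 18417 genes, each read from its brightest probe set by mean. PSMB9 and TAP1 each had 3 probe sets of identical values.

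Every gene was fitted with 4 group means (lmFit and eBayes of limma 3.58.1, R 4.3.3), leaving 8 residual degrees of freedom with 12 arrays and 6 with 10. Contrasts were tested two-sided, and a call needed a p under 0.05 after Benjamini-Hochberg adjustment over all genes. Errors after ± are standard errors of the model, and folds are powers of the log2 differences. The test was also tried on simulated data. The genes and lists were chosen with earlier results of these data known, so no pattern here is independent support. Called genes were named, with every array's value for those of smallest p, beside a fixed set of regulators and effectors. The alternatives left out arrays, blocked on the replicate number, and changed the normalization, the filter, the probe set rule or the variance model. With 10 arrays, arrays sharing a replicate number deviated together from their group means in 13 of 13 pairs (correlation across genes 0.115 to 0.543, against a limit of 0.1), although 2 controls per group must deviate in opposite ways. With 12 arrays 11 of 18 pairs did. Blocked values are given where they changed calls. Genes with no probe set of their own were left out, and certain items are not reported.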

Additional observations from a re-analysis of the deposited data

Results flagged for a closer look

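The response to pemetrexed differed between Lo and Hi cells for 3 of the 42 genes by the interaction term in limma with 12 arrays. Over all genes this term was called higher for 2.57% and lower for 2.24%. With so few calls, the result concerns these 3 genes and not the list as a whole. The Lo response minus the Hi response was 0.74 on the log2 scale for TAP1, 0.79 for IRF7 and 0.61 for OAS3. TAP1 lost its call in 1 setting, the one with no variance moderation, and IRF7 and OAS3 lost theirs in 11 settings each.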

How the results depend on the processing

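Counts of interferon-stimulated genes called in limma were compared across the alternatives. Between Lo and Hi controls the count went from 0 to 12 without both control arrays labelled replicate 3. With the replicate block as well it went to 21, and leaving out any 1 array gave 0. The calls over all genes rose in the same fits, from 0% to 3.67% higher and 3.5% lower, and to 6.73% and 6.42% with the block. Between Lo and Hi pemetrexed cells the count went from 23, against 11.3% higher and 11% lower of all genes, to 10 with no variance moderation. It ranged from 14 to 27 over the 12 fits that left out 1 array. The interaction went from 3, against 2.57% and 2.24% of all genes, to 1 with the replicate block and 12 arrays, against 2.82% and 2.57%. With the block and 10 arrays it went to 4, against 4.68% and 4.76%. It was 0 with no variance moderation, and ranged from 1 to 5 when 1 array was left out. The pemetrexed response of Lo cells, 5 genes, ranged from 4 to 7 when 1 array was left out, and that of Hi cells stayed at 0. Of 31 calls of single genes with 12 arrays, 13 held in every setting and 18 were lost in at least 1, and no called difference changed sign. The interaction could not be fitted with only the groups of a comparison, since it uses all 4. With 3 arrays per group, and 2 controls per group in the smaller fit, small differences were not detectable, and no background signal was used to say which dim genes were measurable.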
